A study of Mus musculus with 20 samples.

Results

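H3K4me1 peaks of lineage-negative (Lin-) bone marrow cells were compared between *Tet2*-null mice and mice lacking both *Tet2* and p300, to see where this mark was present or absent once p300 was removed from *Tet2*-null cells. The peak lists of the libraries labelled Tet2 Knockout and p300 Tet2 Knockout were merged into 114407 regions. A region was called lost when no double-deficient peak overlapped it by at least 1 bp, gained when no *Tet2*-null peak did, and retained otherwise. By this rule 29368 regions were lost, 19926 were gained and 65113 were retained. The counts depend on how weak a peak is admitted: with only peaks of −log10 q of at least 5 in both lists they were 31857 lost and 9050 gained, and with only lost and gained regions above the median fold of their list 9496 and 5610. Lost regions were thus 31.1% of the 94481 regions with a *Tet2*-null peak, and gained regions 23.4% of the 85039 regions with a double-deficient peak, which are the background shares for every count below.

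The study examined how p300 loss acts in mouse models of myelodysplastic syndrome, and the chromatin was profiled by ChIP-Seq in Lin- marrow cells of 4 genotypes, with 1 library per genotype and mark. WT mice carried *Ep300* fl/fl without Cre; Ep300Δ/Δ mice were Mx1-Cre;*Ep300* fl/fl. Tet2-/- mice were *Ep300* fl/fl;Tet2-/-, a germline null, and Ep300Δ/ΔTet2-/- mice were Mx1-Cre;*Ep300* fl/fl;Tet2-/-. By the study's methods every genotype received poly(I:C) at 6 to 8 weeks of age in 3 doses of 10 µg/g, so the WT and Tet2-/- controls had the inducer too. Mx1-Cre is switched on by interferon and also recombines outside the blood. By those methods experiments were done 2 weeks after poly(I:C) unless another time is stated, and none is stated for the ChIP-Seq. How many mice each library pooled was not given in the sources used here. The cells were depleted of lineage-positive cells on a column, so the material was a mixture of progenitors and whatever escaped depletion. With 1 library per genotype there was no replicate, no difference between genotypes was tested, and every share below describes these libraries. Exact Clopper-Pearson 95% intervals cover counting error only. Read depth is unknown from peak lists, so an absent peak means that none is listed. By the study's methods listed peaks are those called in pseudo-replicates, random subsets of the reads of 1 library, that overlap, so a peak that did not recur between subsets is absent too.

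H3K4me1, monomethylation of lysine 4 of histone H3, is laid down chiefly by the MLL3 and MLL4 methyltransferases and marks enhancers, both poised and active, and the flanks of active promoters. p300, encoded by *Ep300*, is an acetyltransferase that places H3K27ac on active enhancers and promoters, and an enhancer carrying H3K4me1 without H3K27ac is usually described as primed. Tet2 oxidises 5-methylcytosine, and H3K4me1-marked enhancers are among the sites where it is known to act.

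To show what the rule picks out, the sequences around 5 lost regions are given first. They are the lost regions outside promoters with the highest fold enrichment over the H3 background among 73 that also had an H3K27ac peak in Tet2-/- only, an H3K4me1 peak in WT and none in Ep300Δ/Δ. Each line gives the nearest protein-coding start, the GRCm38 interval of 201 bases centred on the peak summit, and the plus strand, with capitals marking matches to any of 12 motifs of hematopoietic transcription factors.
Prkcb, chr7:122258895-122259095: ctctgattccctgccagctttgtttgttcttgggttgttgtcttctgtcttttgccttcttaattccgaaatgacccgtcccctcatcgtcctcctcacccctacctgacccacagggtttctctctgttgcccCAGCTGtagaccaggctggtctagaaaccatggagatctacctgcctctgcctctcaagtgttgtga
Cdc73, chr1:143708829-143709029: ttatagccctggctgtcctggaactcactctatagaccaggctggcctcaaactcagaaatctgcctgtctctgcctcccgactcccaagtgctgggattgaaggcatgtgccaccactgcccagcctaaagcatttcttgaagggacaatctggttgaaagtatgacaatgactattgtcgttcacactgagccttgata
Cemip2, chr19:21862564-21862764: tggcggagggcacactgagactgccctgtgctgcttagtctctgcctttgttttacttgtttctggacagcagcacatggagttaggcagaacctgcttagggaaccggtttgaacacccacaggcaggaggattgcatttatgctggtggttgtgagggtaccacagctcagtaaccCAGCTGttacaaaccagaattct
Tent5a, chr9:85495160-85495360: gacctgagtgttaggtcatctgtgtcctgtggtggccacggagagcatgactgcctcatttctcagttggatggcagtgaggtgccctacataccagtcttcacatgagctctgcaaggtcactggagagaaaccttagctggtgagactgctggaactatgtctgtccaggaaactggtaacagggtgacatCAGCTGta
Stxbp5, chr10:10009784-10009984: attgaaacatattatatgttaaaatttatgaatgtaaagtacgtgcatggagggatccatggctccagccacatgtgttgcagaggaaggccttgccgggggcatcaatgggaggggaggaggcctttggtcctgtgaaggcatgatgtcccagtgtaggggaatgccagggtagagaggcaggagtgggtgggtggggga

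Those regions reached 8.50- to 11.0-fold enrichment in the Tet2-/- list. The first lay 29.6 kb from *Prkcb*, which encodes protein kinase C beta, and the second 5.59 kb from *Cdc73*, which encodes a subunit of the PAF1 elongation complex. The *Cemip2*, *Tent5a* and *Stxbp5* regions were 83.9, 168 and 109 kb from those starts, and their nearest annotated starts of any kind belonged to unnamed transcripts. For 4 of the 5 the nearest double-deficient H3K4me1 peak was 30.9 to 54.1 kb away, while the *Prkcb* region had one at 0.411 kb.

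The matching set among gained regions held 129 regions outside promoters with an H3K27ac peak in Ep300Δ/ΔTet2-/- only, and the 5 with the highest fold enrichment are shown in the same way.
Zfp395, chr14:65343204-65343404: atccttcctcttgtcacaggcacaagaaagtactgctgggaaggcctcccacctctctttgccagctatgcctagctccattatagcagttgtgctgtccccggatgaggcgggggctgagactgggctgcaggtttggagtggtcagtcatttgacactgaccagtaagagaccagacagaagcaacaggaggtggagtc
Dnajc15, chr14:77871100-77871300: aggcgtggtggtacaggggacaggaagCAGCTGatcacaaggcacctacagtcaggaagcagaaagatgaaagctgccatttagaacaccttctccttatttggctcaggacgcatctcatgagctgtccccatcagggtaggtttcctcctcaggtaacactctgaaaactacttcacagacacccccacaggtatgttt
Incenp, chr19:9917551-9917751: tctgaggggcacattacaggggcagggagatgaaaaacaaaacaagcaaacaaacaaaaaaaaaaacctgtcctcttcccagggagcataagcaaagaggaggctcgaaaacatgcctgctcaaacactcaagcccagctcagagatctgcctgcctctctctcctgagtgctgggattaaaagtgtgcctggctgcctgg
Dnajc13, chr9:104269643-104269843: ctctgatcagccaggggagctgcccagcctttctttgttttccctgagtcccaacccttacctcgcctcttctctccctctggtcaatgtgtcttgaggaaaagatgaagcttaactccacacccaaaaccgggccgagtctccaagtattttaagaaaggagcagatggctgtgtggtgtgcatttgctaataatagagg
Bcas1, chr2:170319644-170319844: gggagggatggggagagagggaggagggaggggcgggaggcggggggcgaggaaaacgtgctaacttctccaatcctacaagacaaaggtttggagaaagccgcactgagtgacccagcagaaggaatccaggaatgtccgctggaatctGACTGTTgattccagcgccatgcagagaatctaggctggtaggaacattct

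Here enrichment ran from 8.40- to 12.5-fold. The strongest, a 1206-bp region 14.7 kb from *Zfp395*, also overlapped H3K4me3 peaks of both genotypes, as did the regions near *Dnajc13* and *Bcas1*. All 5 of these gained regions had an H3K4me1 peak in WT, and 4 had one in Ep300Δ/Δ as well, so that at those 4 the Tet2-/- library alone was without a call. For 4 of the 5 a Tet2-/- peak lay within 0.012 to 0.797 kb. The E-box CAGCTG occurred in 3 of the 5 lost and 1 of the 5 gained sequences, against 15.8% of all 114407 windows of this length. These few sequences do not stand for their classes. By class the E-box was in 14.8% of lost, 14.7% of gained and 16.5% of retained windows.

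The Tet2-/- list held 98069 H3K4me1 peaks over 69.8 Mb and the Ep300Δ/ΔTet2-/- list 93465 over 58.1 Mb. The authors' stated threshold was a q value under 0.05, but 522 and 2652 of these peaks had a listed q of 0.05 or more. Lists also differed between genotypes with the same p300 state: 28.6% of WT regions had no Tet2-/- peak and 26.2% of Ep300Δ/Δ regions no double-deficient peak.

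Lost and gained regions were narrow and weak. Lost regions had a median width of 334 bp and gained regions of 292 bp, against 726 bp for retained regions. They covered 11.5 and 6.70 Mb, and retained regions 63.0 Mb. In the Tet2-/- list the median enrichment was 4.45-fold for lost and 5.55-fold for retained regions. In the Ep300Δ/ΔTet2-/- list it was 4.03-fold for gained and 5.08-fold for retained regions. Retained regions were not the same in both lists either. Within them the Tet2-/- peaks covered 58.2 Mb and the double-deficient peaks 51.4 Mb, and 7280 held several double-deficient peaks whereas 3392 held several Tet2-/- peaks.

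The share lost fell steeply with peak strength. When the regions with a Tet2-/- peak were divided into 4 equal parts by fold enrichment, 44.7% of the weakest were lost (95% interval 44.1 to 45.4) and 40.1% of the next. Of the second strongest 29.0% were lost, and of the strongest, at 6.67-fold or more, 10.4% (10.1 to 10.8). Gained regions behaved alike, with 37.9% of the weakest double-deficient regions gained and 5.65% of the strongest (5.34 to 5.97).

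**Figure D1:**
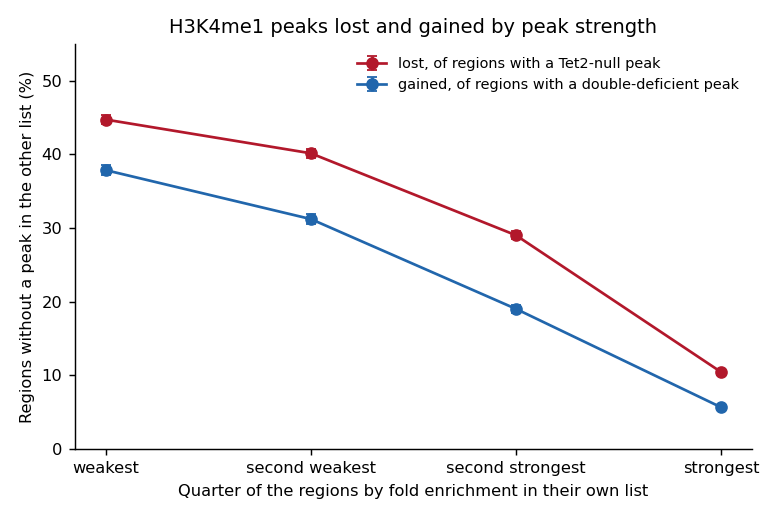
Share of H3K4me1 regions lost (red, of regions with a Tet2-null peak) or gained (blue, of regions with a double-deficient peak), in percent, for 4 equal parts of each list ordered by fold enrichment, with exact 95% intervals for counting error. The lost share goes from 44.7% in the weakest part to 10.4% in the strongest, and the gained share from 37.9% to 5.65%.

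Many lost regions lay close to a region that still had a double-deficient peak. A retained region was found within 1 kb of 41.7% of lost regions (95% interval 41.1 to 42.3). A double-deficient peak of any kind, gained ones included, was found within 0.5 kb of 31.7% of lost regions and within 1 kb of 46.2% (95% interval 45.7 to 46.8), and the median gap was 1.22 kb. At the other end, 7625 lost regions, 26.0%, were more than 5 kb from any double-deficient peak. Of gained regions 45.0% had a Tet2-/- peak within 1 kb and 6136, or 30.8%, had none within 5 kb. The isolated regions were not stronger than the rest, with median enrichments of 4.46-fold for lost and 4.03-fold for gained ones.

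Losses were distal more often than gains. A region was placed at a promoter when it came within 3000 bp of an annotated transcript start, and otherwise in an exon, an intron or between genes. Of lost regions 33.5% were at promoters (95% interval 32.9 to 34.0), against 45.4% of gained (44.7 to 46.1) and 45.3% of retained regions. Introns held 37.6% of lost, 31.4% of gained and 30.3% of retained regions, and intergenic sequence held 24.5%, 19.4% and 19.1%. Read the other way, 25.0% of Tet2-/- promoter regions were lost but 35.9% of intronic and 36.7% of intergenic ones. Exonic regions were in between, with 27.5% lost. The gained share was 23.5% of promoter, 24.1% of intronic and 23.7% of intergenic double-deficient regions, and lower, 18.3% (17.1 to 19.5), of exonic ones. The median distance to the nearest start was 6.25 kb for lost, 3.90 kb for gained and 3.89 kb for retained regions.

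Most of the turnover took place where no H3K27ac peak was called. Neither genotype had an H3K27ac peak at 95.5% of lost regions (95% interval 95.2 to 95.7), at 87.7% of gained regions and at 77.5% of retained regions. Retained regions were wider, and width was not matched in these shares. Outside promoters 19140 of the 19542 lost regions had an H3K27ac peak in neither genotype. Of these distal lost regions 360 had an H3K27ac peak in Tet2-/-, and 281 of these, 78.1% (73.4 to 82.2), had none in the double-deficient cells. At retained distal regions the corresponding figure was 2805 of 5176, or 54.2% (52.8 to 55.6). H3K27ac peaks of Tet2-/- cells were therefore absent from the double-deficient list at most distal H3K4me1 regions of either class, and at a larger share where the H3K4me1 peak was absent too.

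Seen from the acetylated side, distal H3K4me1 peaks under H3K27ac were seldom lost. Of 5536 distal regions with both marks in Tet2-/- cells, 6.50% lost the H3K4me1 peak (95% interval 5.87 to 7.18), and of 49633 without H3K27ac 38.6% did (38.2 to 39.1). Acetylated regions are also the stronger H3K4me1 peaks, so the shares were taken within the 4 strength parts as well. Width was not matched. Retained regions, merged from both lists, were wider than lost ones and so had more room to overlap an H3K27ac peak. In the strongest part 1.96% of acetylated and 14.8% of other distal regions were lost, and in the weakest part 19.9% and 52.9%. Where H3K27ac was kept in both genotypes 79 of 2450 distal regions lost H3K4me1, 3.22%, whereas where H3K27ac was called in Tet2-/- only 281 of 3086 did, 9.11% (8.11 to 10.2). So 2805 distal regions were without their H3K27ac peak in double-deficient cells but kept an H3K4me1 peak.

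**Figure D2:**
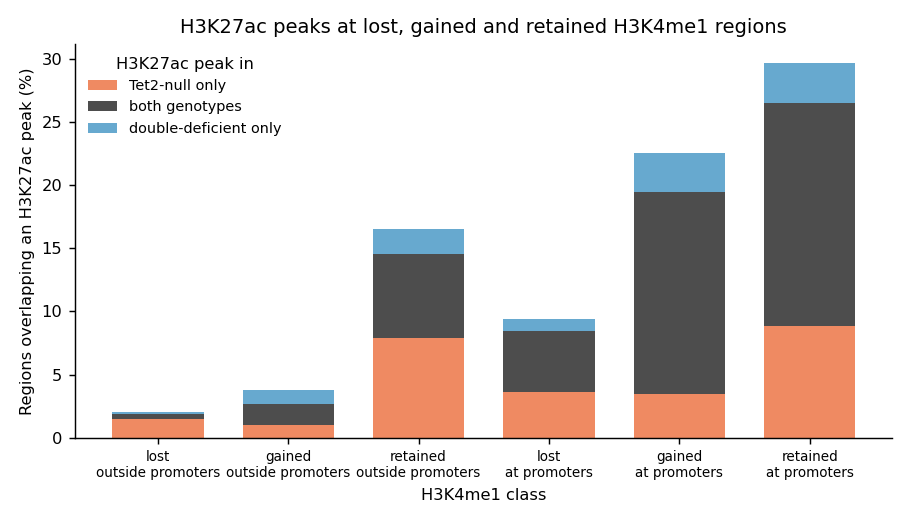
Percent of lost, gained and retained H3K4me1 regions that overlap an H3K27ac peak, outside promoters (left) and at promoters (right), stacked by the genotype in which the H3K27ac peak was called. Lost distal regions carry the fewest H3K27ac peaks, 97.9% having none, and retained promoter regions the most.

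Gained regions at promoters carried other marks of active promoters more often than lost ones, though 77.4% had no H3K27ac peak in either genotype. Of the 9040 gained promoter regions 16.1% had an H3K27ac peak in both genotypes and 41.7% an H3K4me3 peak in both (95% interval 40.7 to 42.8); at the 9826 lost promoter regions these shares were 4.85% and 20.6% (19.8 to 21.4). Of retained promoter regions 17.6% had H3K27ac and 49.6% H3K4me3 in both genotypes. An H3K27ac peak in double-deficient cells only was seen at 280 gained promoter regions, 3.10%, and in Tet2-/- only at 309, 3.42%. Outside promoters 129 gained regions had H3K27ac in the double-deficient cells only, 109 in Tet2-/- only and 177 in both.

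The same regions were then looked up in the WT and Ep300Δ/Δ lists, which the classes did not use and in which *Tet2* was intact. Between those lists 36.7% of WT regions had no Ep300Δ/Δ peak. Of regions lost on the *Tet2*-null background 14501, or 49.4%, had a WT peak, and 58.4% of these had no Ep300Δ/Δ peak (95% interval 57.6 to 59.2). Of 55612 retained regions with a WT peak, 13.2% had none (12.9 to 13.5). With only Tet2-/- and double-deficient peaks of −log10 q of at least 5 these shares were 38.4% and 7.03%, the WT and Ep300Δ/Δ lists being unfiltered. The difference between lost and retained regions was present at every strength, with 47.8% against 7.12% in the strongest part and 61.3% against 19.5% in the weakest. Retained regions were also wider, and width was not matched. Of 7897 gained regions with a WT peak, which do have a double-deficient peak, 3306 had no Ep300Δ/Δ peak. A missing Ep300Δ/Δ peak was thus not particular to lost regions. In all, 8468 regions were called in WT and Tet2-/- and in neither p300-deficient genotype, and 6033 lost regions were called in both WT and Ep300Δ/Δ.

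**Figure D3:**
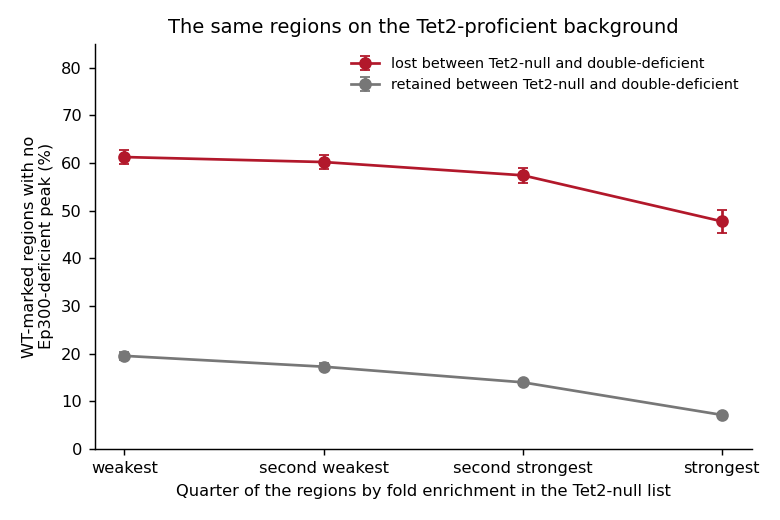
Of regions with a WT H3K4me1 peak, the percent with no Ep300Δ/Δ peak, for regions lost (red) and retained (gray) between Tet2-null and double-deficient cells, in 4 equal parts of the Tet2-null list by fold enrichment, with exact 95% intervals for counting error. The lost regions lie between 47.8% and 61.3% and the retained regions between 7.12% and 19.5%.

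Gained regions were looked up in the same 2 lists. Of 12029 gained regions without a WT peak 28.7% had an Ep300Δ/Δ peak (95% interval 27.9 to 29.5), a smaller share than the 52.5% of 9501 retained regions without a WT peak. In the strongest part these shares were 45.0% and 68.3%, and in the weakest 26.8% and 46.9%. Among lost regions without a WT peak, 2996 had an Ep300Δ/Δ peak and 11871 had none. A WT peak was present at 39.6% of gained regions, and 23.0% had peaks in both WT and Ep300Δ/Δ, so that Tet2-/- alone was without a call there. Regions seen in neither WT nor Ep300Δ/Δ made up 43.0% of gained and 40.4% of lost regions, and 6.93% of retained ones. Of gained regions in the strongest part 24.6% were seen in neither, and in the weakest part 45.3%.

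Lost regions had 13514 different nearest genes and gained regions 12182, of 25499 with any region. The genes with the most lost regions were large. *Pde4d*, a cAMP phosphodiesterase, had 37 lost, 47 retained and 16 gained regions, and *Igf1r*, the IGF-1 receptor, had 31, 52 and 8. *Cdk6*, a cell cycle kinase that drives proliferation of hematopoietic progenitors, had 24 lost, 36 retained and 1 gained. Near *Cdk6* the lists held 57 H3K4me1 peaks in WT, 36 in Ep300Δ/Δ, 61 in Tet2-/- and 41 in Ep300Δ/ΔTet2-/-, and its H3K27ac peaks numbered 17, 6, 12 and 8 in the same order. The whole lists were smaller in both p300-deficient genotypes too, with 107392, 90738, 98069 and 93465 H3K4me1 peaks and 29659, 22727, 24539 and 18327 H3K27ac peaks.

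Several of these genes lost regions almost without gains. *Pcnx* had 22 lost, 14 retained and 0 gained regions, 9 of them in a row within 13.8 kb. *Chd7*, a chromatin remodeler, had 21 lost and 1 gained, with 48, 16, 36 and 18 H3K4me1 peaks across WT, Ep300Δ/Δ, Tet2-/- and Ep300Δ/ΔTet2-/-. *Abtb2* had 22 lost and 2 gained, with 51, 23, 42 and 23 peaks. *Foxp1* and *Asap1*, each with 23 lost and 13 gained regions, stood among the top for both by count only. Of their 86 and 85 Tet2-/- regions 26.7% and 27.1% were lost, under the 31.1% of all. Their gained shares were 17.1% and 17.3%, under 23.4%. *Sipa1l1* lost 27 of 65, 41.5%, and *Ankrd11* 22 of 66, 33.3%, which is near the share of all regions. At 9 of these 10 genes the double-deficient list held fewer H3K27ac peaks than the Tet2-/- list, and at *Abtb2* each held 1. Over all genes the lists held 18327 and 24539. The share of all genes with fewer H3K27ac peaks was not counted, so the 9 have no matched background.

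Among genes with at least 10 regions in Tet2-/-, the highest lost shares belonged to *Bcas3* (15 of 16), *Tprg* (10 of 11) and *Papss2* (14 of 18). *Bcas3* had 9 gained regions besides and led the gained shares too, with 9 of 10, so nearly its whole pattern of calls moved. *Btg1*, an antiproliferative gene, lost 16 of 21 and gained 0. Its H3K4me1 peaks numbered 18 in WT, 15 in Ep300Δ/Δ and 21 in Tet2-/-, but 5 in Ep300Δ/ΔTet2-/-. The missing peaks ran from exonic sequence of the gene, 3.99 kb from the nearest start, to 45.8 kb downstream of it, the strongest at 9.45-fold, 28.7 kb away. Of the 16 lost regions 11 had a WT peak, 3 of which had no Ep300Δ/Δ peak, and none overlapped an H3K27ac peak in Tet2-/- or double-deficient cells. At the *Btg1* start the H3K27ac peaks remained, with 4, 3, 3 and 3 near the gene in WT, Ep300Δ/Δ, Tet2-/- and Ep300Δ/ΔTet2-/-. *Mllt3*, a gene of stem cell maintenance and a known MLL fusion partner, lost 11 of 15.

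The genes with the most gained regions were partly the same, *Pde4d*, *Asap1* and *Foxp1* being among the first 10 for both by count. Their gained shares were 25.4%, 17.3% and 17.1%, near or under the 23.4% of all double-deficient regions. *Sik3*, a salt-inducible kinase, had 16 gained, 12 lost and 31 retained regions, and *Adcy9*, an adenylyl cyclase, 12 gained against 3 lost. *Tns1* and *Snd1* also had 12 gained each, against 8 lost each. By share, *Dusp10*, a MAP kinase phosphatase, and *Pla2g16* each had 8 of 10 double-deficient regions gained, and *Bbx* 9 of 14. The 3 H3K4me1 lists other than Tet2-/- held 8, 14 and 14 peaks near *Bbx* in WT, Ep300Δ/Δ and Ep300Δ/ΔTet2-/-, and Tet2-/- held 6.

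At the deleted genes, *Ep300* had 5 H3K4me1 peaks within its body (chr15:81585351-81652077) in both Tet2-/- and Ep300Δ/ΔTet2-/- and 3 in WT and Ep300Δ/Δ. The 2 regions nearest to its starts, 1 of them at the promoter, were both lost. *Tet2* (chr3:133463679-133545139) had 8 peaks in its body in WT, 5 in Ep300Δ/Δ, 4 in Tet2-/- and 7 in Ep300Δ/ΔTet2-/-. By nearest start it had 2 lost, 6 retained and 5 gained regions. Peak calls do not show whether the floxed exon was removed.

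Of 14 gene lists, the one that stood farthest above the background held genes of mast cells, basophils and eosinophils. Near its 16 genes 53 of 105 Tet2-/- regions were lost, 50.5% (95% interval 40.5 to 60.4) against 31.1% of all regions, and 11 of 63 double-deficient regions were gained, 17.5%. At 13 of the 16 genes more regions were lost than gained, and at the other 3 as many; of all 25499 genes with a region 38.0% had more lost and 27.4% more gained. The median gene lost 70.8% of its regions, against 25.0% for all genes. By nearest protein-coding start these medians were 51.3% and 25.0%. The eotaxin receptor gene *Ccr3* lost 8 of 18 with 0 gained, and *Cd200r3* lost 8 of 17 with 2 gained. *Il5ra*, the interleukin-5 receptor of eosinophils, lost 6 of 7, of which 3 in an intron lay under H3K27ac peaks of double-deficient cells. None of the 3 had H3K27ac in Tet2-/-, 2 had it in WT and 1 in Ep300Δ/Δ. At *Cpa3* and *Prss34*, which encode mast cell and basophil proteases, and at *Ms4a2*, a chain of the high-affinity IgE receptor, all regions were lost, 2, 3 and 2 in number.

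The same list moved on the other background. Between WT and Ep300Δ/Δ 56 of 104 regions near these genes were lost, 53.8% (95% interval 43.8 to 63.7) against 36.7% of all. The list had 112 H3K4me1 peaks in WT, 68 in Ep300Δ/Δ, 107 in Tet2-/- and 67 in Ep300Δ/ΔTet2-/-. Its H3K27ac peaks followed another order, 34 in WT against 8, 9 and 6, a steeper drop from WT than in the whole H3K27ac lists, so Tet2-/- cells had nearly the WT number of H3K4me1 peaks with about as few H3K27ac peaks as the p300-deficient genotypes. Of the 53 lost regions 0 had an H3K27ac peak in Tet2-/- and 5 had one in WT, where the shares of all lost regions were 4.07% and 5.15%. In a mixed Lin- population fewer cells of a type and less mark per cell cannot be told apart.

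Other lists lay nearer to the background. Losses reached 34.8% for macrophage and dendritic cell genes, 34.6% for B-lymphoid, 32.1% for T-lymphoid and Notch, and 30.5% for granulocyte and monocyte genes, all with intervals that include 31.1%. In the order just given 8, 9, 9 and 12 of their genes had more lost than gained regions, and 4, 6, 4 and 7 more gained than lost, of 18, 21, 19 and 26 with regions, which is near the 38.0% and 27.4% of all genes. *Csf2ra*, a chain of the GM-CSF receptor, had 0 lost and 4 gained regions, and *Cebpe*, a regulator of granulocyte maturation, 1 and 4. Some genes went the other way. *Vcam1*, the adhesion receptor of macrophages and stroma, lost all 8 of its regions, 5 at annotated starts, and its nearest double-deficient peaks were 19.4 kb or more away. *Vcam1* had 5, 1, 8 and 0 H3K4me1 peaks and 3, 0, 1 and 0 H3K27ac peaks across WT, Ep300Δ/Δ, Tet2-/- and Ep300Δ/ΔTet2-/-. *Ets1*, a transcription factor of lymphoid development, lost 14 of 22 and gained 0, and *Ikzf1*, which encodes Ikaros, lost 8 of 16 and gained 0. *S100a9*, a calcium-binding protein of neutrophils and monocytes, lost 5 of 6.

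**Figure D4:**
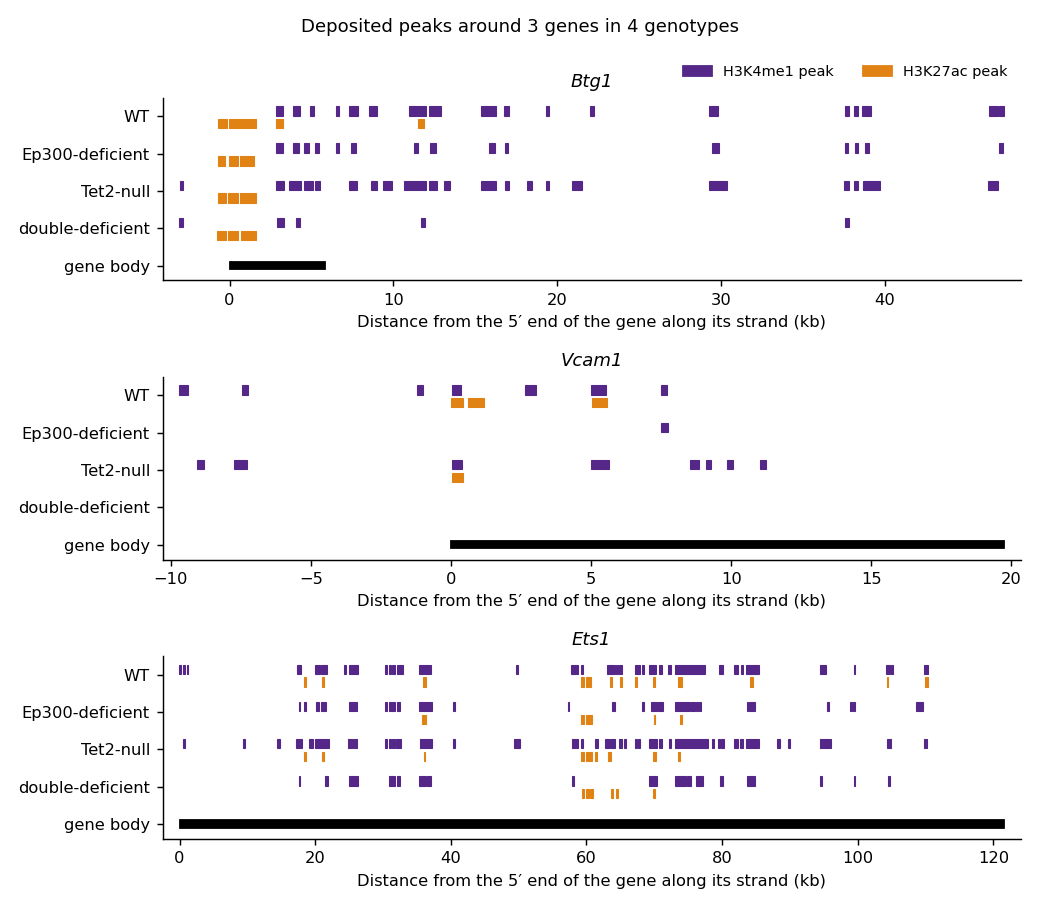
Deposited H3K4me1 peaks (purple) and H3K27ac peaks (orange) around Btg1, Vcam1 and Ets1 in WT, Ep300-deficient, Tet2-null and double-deficient cells, by distance in kb from the 5′ end of each gene along its strand, with the gene body in black. Of the Tet2-null regions whose nearest start is that of the gene, the double-deficient list keeps 5 of 21 for Btg1, 0 of 8 for Vcam1 and 8 of 22 for Ets1; peaks nearest to other starts are drawn too.

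Stem and progenitor regulators were marked in all 4 genotypes, with 377, 322, 342 and 328 H3K4me1 peaks in WT, Ep300Δ/Δ, Tet2-/- and Ep300Δ/ΔTet2-/-. These genes, erythroid and megakaryocyte genes lost 26.6%, 24.5% and 20.8% of their regions, the last with an interval of 15.0 to 27.8. *Runx1*, a master regulator of blood stem cells, had 18 lost, 53 retained and 8 gained, and *Erg* had 12, 28 and 4. *Kit*, the stem cell factor receptor, lost 6 of 22. Its 40 H3K4me1 peaks in WT stood against 22, 22 and 21 in the other 3 genotypes, so most of the difference at *Kit* was already present between WT and Tet2-/-. Marrow stromal and endothelial genes lost 28 of 83 regions, 33.7%. *Pecam1*, an adhesion molecule of endothelium and some stem cells, lost 16 of 38 and so held 16 of those 28. The median gene of this list lost 16.7%, against 25.0% for all genes.

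TNF and NF-kB genes lost 22.4% (95% interval 16.8 to 28.9) and gained 14.1% (9.35 to 20.1), both under the background shares. By nearest protein-coding start the lost share was 26.4% with an interval of 21.6 to 31.6, which includes the background, and the gained share 15.5% (11.4 to 20.4). *Nfkb1*, a subunit of NF-kB, retained 36 of 47. *Tnfaip3*, which encodes the NF-kB inhibitor A20, lost 7 of 17 and gained 0, and the TNF receptor gene *Tnfrsf1b* lost 4 of 23 and gained 0.

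AP-1 and immediate early genes kept most of their H3K4me1 regions. Near these 20 genes 12 of 97 regions were lost, 12.4% (95% interval 6.56 to 20.6), and 27 of 112 were gained, 24.1%, 20 of the 27 at promoters. With the nearest protein-coding start in place of any start the lost share was 21.2%. The list had 109 H3K4me1 peaks in Tet2-/- and 128 in Ep300Δ/ΔTet2-/-. *Fos* had 2 lost, 11 retained and 3 gained regions, and *Nr4a2*, an immediate early nuclear receptor, had 1, 3 and 4.

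The Hoxa and Hoxb genes, which pattern the body axis and sustain progenitor self-renewal, had the highest gained share of the 14 lists, from few regions. Near 19 genes 14 of 37 double-deficient regions were gained, 37.8%, with a 95% interval of 22.5 to 55.2 that includes the 23.4% of all regions, and 3 of 26 Tet2-/- regions were lost. The gains were weak peaks of 2.47- to 5.21-fold. Of the 14, 13 were at promoters, as were 2 of the 3 lost regions. Starts lie close together in these clusters, so the 45.4% of all gained regions is no matched background. *Hoxa2* and *Hoxb9* each had 3 gained regions and no other, with no H3K27ac peak in any genotype. A WT peak was present at 1 of the 14, against 39.6% of all gained regions.

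**Figure D5:**
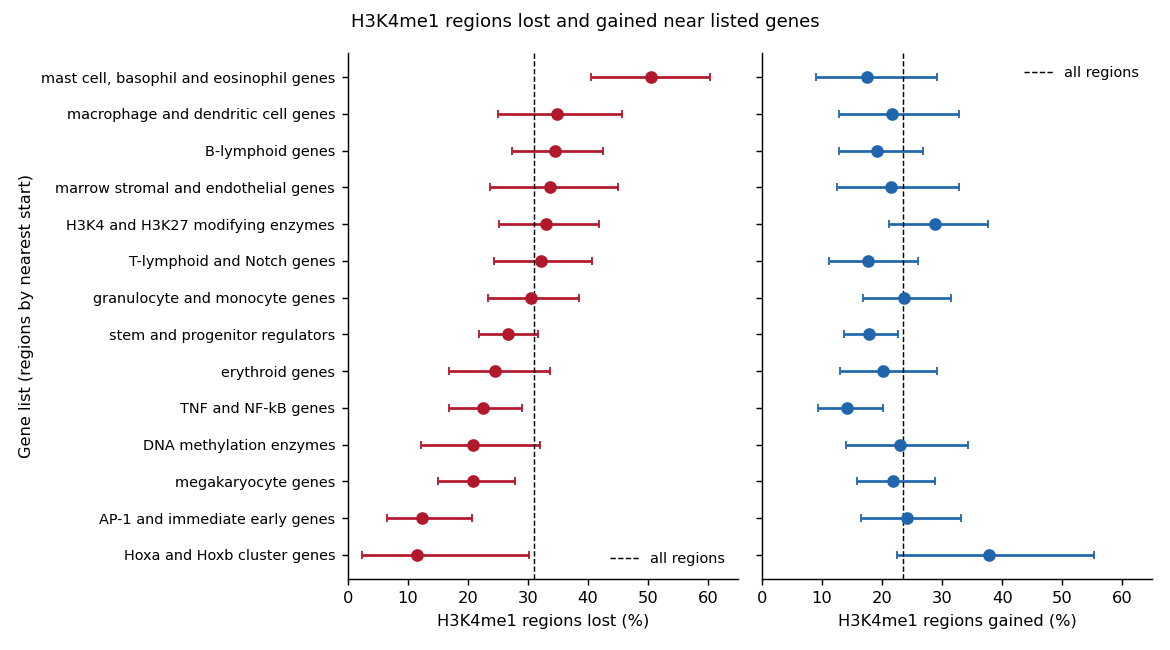
Percent of H3K4me1 regions lost (left, red) and gained (right, blue) near the genes of 14 lists, with exact 95% intervals for counting error and dashed lines at the shares of all regions, 31.1% and 23.4%. Mast cell, basophil and eosinophil genes lie highest for losses, and Hoxa and Hoxb genes highest for gains.

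The genes of chromatin enzymes were near the background. H3K4 and H3K27 modifying enzymes lost 33.1% and gained 28.8%, with *Kat6b*, an acetyltransferase, losing 11 of 26. *Crebbp*, the paralog of *Ep300*, had 1 lost, 4 retained and 4 gained regions. Among DNA methylation enzymes, *Tet2* included, with 20.8% lost and 23.0% gained, *Dnmt3a* had 2 lost, 16 retained and 6 gained.

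The motif shares at the summits differed by small amounts between the classes. In 201-base windows the most distinct motif was the E-box CAGCTG, found in 14.8% of lost, 14.7% of gained and 16.5% of retained windows. A C/EBP-type motif, TTGCNNAA, was in 7.86%, 7.01% and 7.08%, and the GATA motif AGATAAG in 2.89%, 2.46% and 2.52%. CCCNNGGGA (EBF) was in 3.77%, 4.11% and 4.64%, and AGGGGGC (CTCF) in 3.22%, 3.89% and 4.14%, both lowest in lost windows. Across all windows AACNGNC (MYB) was in 25.3%, TGANTCA (AP-1) in 5.95%, AACCACA (RUNX) in 5.62%, and GAAANNGAA (IRF) in 4.75%. GAGGAAGT (PU.1) was in 2.18%, GGGANTTCC (NF-kB) in 0.890% and ACCGGAAGT (ETS) in 0.0892%. No class differed from retained regions by more than 1.76 percentage points for any of the 12 in these windows; with 250 bases on either side the E-box difference of lost regions was -3.98 points and RUNX turned sign in lost regions. Gained windows held 4.19 CpG on average, lost windows 2.98 and retained windows 3.60; outside promoters these means were closer, at 3.03, 2.67 and 2.95.

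The strongest single losses outside promoters reached 12.2- to 13.9-fold. The first, a 352-bp intronic region 26.9 kb from a start of *Stim2*, which encodes a calcium sensor (chr5:54047497-54047848), had a double-deficient peak 0.556 kb away and peaks in both WT and Ep300Δ/Δ. The second was in an intron of *Atp2b1*, a calcium pump, with a peak 1.37 kb away. Regions 82.1 kb from *Klf6* and 13.3 kb from *Serpinb2* had H3K27ac in Tet2-/- only. Of the 5, 4 were present in WT and all 5 in Ep300Δ/Δ. Among the strongest gains outside promoters, of 10.5- to 12.5-fold, the most isolated lay 81.9 kb from *Egfr* and 82.2 kb from any Tet2-/- peak, and had no peak in WT or Ep300Δ/Δ.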

How the data were processed

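Peak lists of H3K4me1, H3K27ac and H3K4me3 ChIP-Seq from Lin- marrow cells were used as deposited, 10 in all; the WT and Ep300Δ/Δ H3K4me3 lists were not used. Per the submitters' processing notes reads were trimmed with cutadapt 1.15, aligned with BWA 0.7.13, filtered with Picard and called with MACS2 2.1.1.20160309 on mm10, each library against H3; by the study's methods a peak had to overlap between pseudo-replicates. The deposited lists give fold enrichment over that H3 library, as a ratio, and a −log10 q value per peak; fold enrichment was used only to order or split peaks within 1 list, and q also as a common minimum for both H3K4me1 lists in alternatives. The Drosophila spike-in does not enter these values. Read counts are not part of these files, so the depth per library is unknown. Labels call the H3K4me1 libraries H3Kme1; the antibody's catalogue number is that of H3K4me1 in the study's methods.

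Lists were merged, overlaps counted and starts assigned in Python 3.11.15 with numpy 2.4.6, pandas 2.3.3 and pysam 0.24.0, and the counts were tested on simulated intervals against bedtools 2.31.1. Nearest starts came from GENCODE M21 (GRCm38) and sequences from the RefSeq GRCm38.p6 genome. Regions went to the nearest start of any transcript. Motifs were searched on both strands in 201 bases around the summit of the strongest peak; matches of 2 motifs may overlap. Intervals are exact (scipy 1.17.1). With 1 library per group there was no test.

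The members and gene lists were chosen with earlier results of these data known. Genes named were the deleted genes, the 10 protein-coding genes with most lost and most gained regions, the 10 with the highest shares among those with at least 10 regions, and up to 4 per list with most lost and gained regions; regions named were the 5 strongest of each kind. *Cpa3*, *Prss34*, *Ms4a2*, *Csf2ra*, *Cebpe* and *Slc7a11* were added after their values were seen. Alternatives tried are given at the end.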

Additional observations from a re-analysis of the deposited data

Results flagged for a closer look

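In 3 gene lists the number of H3K4me1 peaks moved in opposite directions when p300 was absent with and without *Tet2*; the difference was not tested, since each genotype had 1 library. Near AP-1 and immediate early genes the number rose by 19 from Tet2-/- to Ep300Δ/ΔTet2-/-, from 109 to 128, and went from 136 in WT to 122 in Ep300Δ/Δ. Near DNA methylation enzymes it differed by 5, from 74 to 79, against 89 and 74 in WT and Ep300Δ/Δ. That list includes the deleted gene *Tet2*, with 8 peaks in Tet2-/- and 11 in Ep300Δ/ΔTet2-/-, against 12 and 8 in WT and Ep300Δ/Δ. Near erythroid genes the differences were small, -2 between 121 and 119 peaks against 2 between 134 and 136.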

How the results depend on the processing

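Directions between classes held under the settings tried: gained regions were at promoters and under H3K27ac more often than lost regions in each. With 500 bp allowed between peaks 31.6% of lost and 43.7% of gained regions were at promoters, 3.79% and 8.98% had H3K27ac in their genotype, and 61.4% of WT-marked lost regions had no Ep300Δ/Δ peak. At −log10 q of at least 5 these were 38.0%, 49.6%, 7.36%, 13.6% and 38.4%, with 9050 gained regions, 18.3% of double-deficient regions, and 44.1% of Tet2-/- regions lost. Counting only the upper part of each list by fold, above its median, left 9496 lost and 5610 gained regions, with 31.4%, 44.2%, 4.52%, 11.6% and 54.4%. The last share was 57.2% with at least 0.5 of the shorter peak shared and 57.1% with only q under 0.05, a setting added after seeing the data. Promoters of 1500 bp gave 22.2% and 35.5%, and H3K27ac within 500 bp 10.3% and 15.8%. Lists of equal size and autosomes alone moved none of these beyond their counting intervals.

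For 5 lists chosen after their values were seen, the lost share with 500 bp allowed was 6.48% for AP-1 and 7.94% for megakaryocyte genes, and the gained share 5.58% for TNF and NF-kB genes, where 19.9% of all Tet2-/- and 14.4% of all double-deficient regions were lost or gained. At −log10 q of at least 5 megakaryocyte genes lost 30.2%. The mast cell list stayed within its interval in the settings run for it, which did not include the upper part by fold. By nearest protein-coding start AP-1 genes lost 21.2%.

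Motif shares minus those of retained regions, in percentage points, changed with 250 bp on either side. For lost regions RUNX turned from 0.36 to -0.32 and PU.1 from 0.05 to -1.18, and GATA was 0.72, C/EBP 1.52, IRF 1.12, E-box -3.98, EBF -1.96, MYB -1.78, NF-kB -0.28 and CTCF -2.21. For gained regions PU.1 turned from 0.33 to -0.63, AP-1 from 0.15 to -0.60 and CTCF from -0.25 to 0.40, and RUNX was -1.30, E-box -3.07 and MYB -1.72. The causes were not tested. No paired analysis was possible because each genotype had 1 library, and no library could be left out.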

Other observations

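The X chromosome had the highest turnover of any chromosome. Of its 1208 regions with a Tet2-/- peak 43.9% were lost (95% interval 41.1 to 46.7), and 35.9% of its double-deficient regions were gained (33.0 to 38.8). On the autosomes the lost share ran from 26.0% on chromosome 11 to 35.1% on chromosome 13. Median enrichment of the Tet2-/- regions on X was 5.03-fold, inside the range of the autosomes.

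Most lost regions, 74.8%, stood alone or in pairs between regions of other classes. There were 285 runs of at least 5 neighbouring lost regions with no retained or gained region between them, holding 1671 regions or 5.69% of all, and 109 such runs of gained regions, holding 2.99%. How many runs chance placement would give was not tested. The longest held 13 lost regions over 685 kb with *Slc7a11*, the cystine transporter gene, among their nearest genes, and another 12 over 121 kb of chromosome 11.

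Summits of lost regions lay in soft-masked repeats of the reference in 18.7% of cases (95% interval 18.2 to 19.1), against 14.8% of gained and 13.1% of retained regions. Outside promoters the shares were 18.1%, 15.6% and 13.2%. Retained regions were wider and stronger, and the part of strength in this difference was not tested.

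*Idh1*, which encodes isocitrate dehydrogenase 1, had 2 lost, 2 gained and 0 retained regions, all at its promoter, the stronger loss at 11.4-fold. *Bcas3* likewise kept 1 region among 15 lost and 9 gained.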
